A study of Mus musculus with 31 samples.

Results

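The genes described here are 10 transcripts of the tumor necrosis factor (TNF) and NF-kB feedback circuit, Tnf, Nfkbia, Tnfaip3, Tnfaip2, Relb, Nfkb1, Nfkb2, Nfkbiz, Birc3 and Icam1. They were chosen by gene symbol among the 46072 genes of the deposited expression tables, and each symbol matched 1 gene. The choice drew on what is known of the pathway and was made with earlier results of these data known. Counts of the 10 genes beside the share of all genes are therefore descriptive. Messenger RNA was sequenced from 31 subcutaneous tumors, 1 per mouse. RM-9, a mouse prostate cancer line, or MC-38, a mouse colon cancer line, had been injected into the right hind leg of wild-type male C57BL/6 mice (substrain C57BL/6J) bought at 6 to 7 weeks of age, and tumors were grown to about 8 mm in diameter. Control tumors had no treatment, and RT tumors had a single local radiation dose of 15 Gy and were taken 3 h, 12 h or 24 h later. Every group held 4 mice, apart from RM-9 RT 24 h with 3. The Control mice carried the 3 h label, so at 12 h and 24 h the time since RT and the age of the tumor cannot be told apart, and the 3 comparisons within a tumor model share the same 4 Control mice. Each model is 1 cell line in a host with its own immune cells and vessels.

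TNF binds its receptors on the cell surface and, through a chain of adaptors, ubiquitin ligases and kinases, releases NF-kB dimers from their inhibitors. The freed dimers enter the nucleus and switch on genes that include Tnf itself, genes for several NF-kB subunits and genes for the inhibitors that end the signal, so the circuit holds positive and negative feedback. In tumors, the same genes can be transcribed by cancer cells, macrophages, endothelial cells and other cells. In whole tumor tissue, a change in the share of a cell type and a change in RNA per cell cannot be told apart.

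The promoters of the feedback genes are shown because NF-kB dimers act through a short DNA element, the kappaB site. RefSeq promoters on build GRCm38.p6 were given for 7 of the 10 genes, with 10 start sites in all, and each window covered 250 bases before and 50 bases after the start. The kappaB consensus, searched on both strands, occurred in 6 of these 10 windows, from 4 genes, Nfkbia, Tnfaip3, Tnfaip2 and Nfkb2. Among all 32851 promoter windows of that length, 8.46% held it. No match to it was found in the given windows of Tnf, Birc3 and Icam1, which says only that these letters were not in those windows. Capitals mark the kappaB match in each line, and every line reads 5′ to 3′ in the direction of its gene.
Nfkbia, chr12:55492657-55492686, minus strand: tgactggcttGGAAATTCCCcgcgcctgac
Tnfaip3 upstream match, chr10:19015516-19015545, minus strand: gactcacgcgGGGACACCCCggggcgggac
Tnfaip3 match at the start, chr10:19015403-19015432, minus strand: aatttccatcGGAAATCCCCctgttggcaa
Tnfaip2, chr12:111442627-111442656, plus strand: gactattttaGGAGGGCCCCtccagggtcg
Nfkb2 first match, chr19:46304688-46304717, plus strand: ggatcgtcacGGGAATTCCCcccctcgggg
Nfkb2 match nearest the upstream start, chr19:46304716-46304745, plus strand: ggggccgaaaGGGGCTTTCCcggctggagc
Nfkb2 downstream window, chr19:46305449-46305478, plus strand: tccgacggcaGGAATGTCCCcacaaaagcc
Nfkb2 shared by both downstream windows, chr19:46305695-46305724, plus strand: tggtattttcGGGACTTTCCtaagcagcac
The Nfkbia match began 29 bases before the start, and those of Tnfaip3 began 125 and 12 bases before it. The match of Tnfaip2 began 24 bases before its start. In Nfkb2, the first match and the one nearest the upstream start began 39 and 11 bases before that start, and a further match that overlapped the first, 1 base on, is not printed. The Nfkbia and Tnfaip2 matches, the Tnfaip3 match nearest the start and the Nfkb2 match found in a single downstream window follow the consensus when read on the opposite strand. Such a match is a description of the letters and does not show that the site is bound.

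Each library held 21.4 to 29.4 M reads, a depth worked out from FPKM over coverage for reads 75 bases long. Values are in TPM, a level per transcript length in which all genes of a library add up to the same total, so a large share taken by some genes lowers all others. Mitochondrially encoded genes took 47.3% to 57.2% of TPM in RM-9 and 22.5% to 40.6% in MC-38 tumors. One of them, mt-Nd4l, took 35.6% to 43.5% of TPM in RM-9 and 12.9% to 29.6% in MC-38 tumors, and its deposited FPKM was 42.4 times what its read coverage implied. The MC-38 Control mouse 1 stood apart, with the largest mitochondrial share of its model (40.6%) and the largest sum of 7 skeletal muscle markers (10125 TPM, against 19.1 to 1657 TPM in the other 3 Control mice). Each main count below is therefore also given without this mouse or with other scalings where it changed. Cdkn1a and Mdm2, p53 targets known to respond to radiation, were higher than Control at 3 h by log2 0.96 and 1.27 in RM-9 and by 0.80 and 1.11 in MC-38 tumors, with limma adjusted p of 0.011, 0.015, 0.019 and 0.012. Both were also called at 12 h in each model and at 24 h in MC-38 tumors, but not at 24 h in RM-9 tumors (0.83 for Cdkn1a, adjusted p = 0.17, and 0.51 for Mdm2, adjusted p = 0.999). The call of Cdkn1a in MC-38 tumors was lost with median-ratio scaling at 3 h (adjusted p = 0.082) and 12 h (adjusted p = 0.75). In RM-9 tumors at 12 h, the call held in 9 of 18 alternative fits for Cdkn1a and in 6 of 18 for Mdm2. Tissue markers did not follow the labelled origin of the lines. The prostate markers Pbsn and Hoxb13 together were at 0 to 0.049 TPM in RM-9 and at 1.32 to 2.56 TPM in MC-38 Control tumors, with Pbsn at 0 in every library of both models. The 5 colon markers summed to 6.05 to 8.59 TPM in RM-9 and 0.86 to 2.12 TPM in MC-38 Control tumors, with Cdx1 at 0 in every library of both models and Cdx2 in every MC-38 library. Of the epithelial markers Epcam, Krt8, Krt18 and Cdh1, all were below 1 TPM in every MC-38 tumor, and their sum was 610 to 1394 TPM in RM-9 tumors, where Cdh1 was likewise below 1 TPM throughout.

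Before RT, most genes of the circuit had higher TPM in MC-38 than in RM-9 tumors. Of the 10 genes, 9 were higher in MC-38 Control tumors (adjusted p under 0.05 in limma on log2(TPM + 0.5)), where 64.7% of all 15358 genes tested were called higher, and 1, Tnfaip2, was lower, where 10.7% of all genes were called lower. The median difference was 1.72 on the log2 scale for the 10 genes and 0.63 for all genes. With median-ratio scaling, which sets the typical gene to no change, the 10 genes had a median of 1.17, and 8 were called higher, beside 33.4% of all genes. Whether the libraries of both models were prepared and sequenced together is not given in the sources used here, so any such difference and the tumor model cannot be told apart.

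Markers of other cells differed between the Control tumors as well, in TPM as deposited. Of all genes tested, 50.9% had every MC-38 Control tumor above every RM-9 Control tumor. The marker sums were not rescaled for the mitochondrial share, which was 47.8% to 50.5% in RM-9 and 25.7% to 40.6% in MC-38 Control tumors. Every MC-38 tumor lay above every RM-9 tumor for the summed markers of macrophages (1023 to 1741 against 580 to 916 TPM), T cells (19.4 to 30.2 against 5.08 to 9.80 TPM), endothelial cells (41.8 to 57.1 against 19.3 to 29.7 TPM) and B cells (3.97 to 7.92 against 0.35 to 0.91 TPM). Neutrophil markers overlapped (12.0 to 26.4 against 13.4 to 19.8 TPM), as did those of fibroblasts (470 to 777 against 591 to 1121 TPM). Their part in the difference of the 10 genes was not tested.

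Tnf, which encodes the ligand (chr17:35199381-35202007), was read at 0.545, 0.762, 0.918 and 0.516 TPM in the RM-9 Control tumors and at 2.57, 5.32, 3.61 and 4.11 TPM in the MC-38 Control tumors. The lowest MC-38 tumor lay above the highest RM-9 tumor, as for 50.9% of all genes. The difference was 1.87 ± 0.17 (SE, log2, adjusted p = 2.63e-10), or 1.39 with median-ratio scaling. In RM-9 tumors the gene rested on 0.955 to 2.37 reads per base, against 4.59 to 11.9 in MC-38 tumors, so its RM-9 values are the less precise ones.

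The subunit gene Nfkb2, which encodes a precursor of the non-canonical pathway (chr19:46304737-46312090), showed 20.99 ± 1.61 TPM (SD, n = 4) in RM-9 and 96.3 ± 13.7 TPM (SD, n = 4) in MC-38 Control tumors. This was a log2 difference of 2.16 ± 0.12 (SE, adjusted p = 4.4e-15). Birc3, a ubiquitin ligase recruited to TNF receptor complexes, had the largest difference of the 10 genes (2.58 ± 0.18), from 2.28 ± 0.41 to 16.4 ± 4.23 TPM (SD, n = 4 each). Nfkbia, the inhibitor that holds NF-kB in the cytoplasm (chr12:55489411-55492647), went from 20.3 ± 1.34 to 79.2 ± 13.6 TPM, a log2 difference of 1.92 ± 0.16. Tnfaip3, the ubiquitin-editing inhibitor known as A20, differed by 1.73 ± 0.15, and Icam1, an adhesion molecule for leukocytes, by 1.72 ± 0.19. Relb, the partner of the Nfkb2 product, differed by 1.24 ± 0.12.

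The smallest differences of the genes called higher were those of Nfkbiz, an inducible nuclear regulator (1.17 ± 0.25), and Nfkb1, the precursor of the canonical subunit (0.94 ± 0.16). Mouse 1 of the MC-38 Control tumors stood low for both, with 2.87 TPM of Nfkbiz against 6.17 to 8.52 TPM in the others, and 33.5 TPM of Nfkb1 against 46.6 to 66.2 TPM. For Nfkb1 the call was lost with median-ratio scaling (log2 0.27, adjusted p = 0.069). Tnfaip2, a TNF-induced gene linked to membrane protrusions (chr12:111442469-111455018), went the other way, at 60.8, 67.3, 79.4 and 55.7 TPM in RM-9 and 26.8, 39.7, 44.0 and 34.7 TPM in MC-38 Control tumors. Every RM-9 tumor lay above every MC-38 tumor, as for 9.09% of all genes. The difference of -0.86 ± 0.14 (log2, SE, adjusted p = 5.26e-06) was -1.52 with median-ratio scaling.

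**Figure D1:**
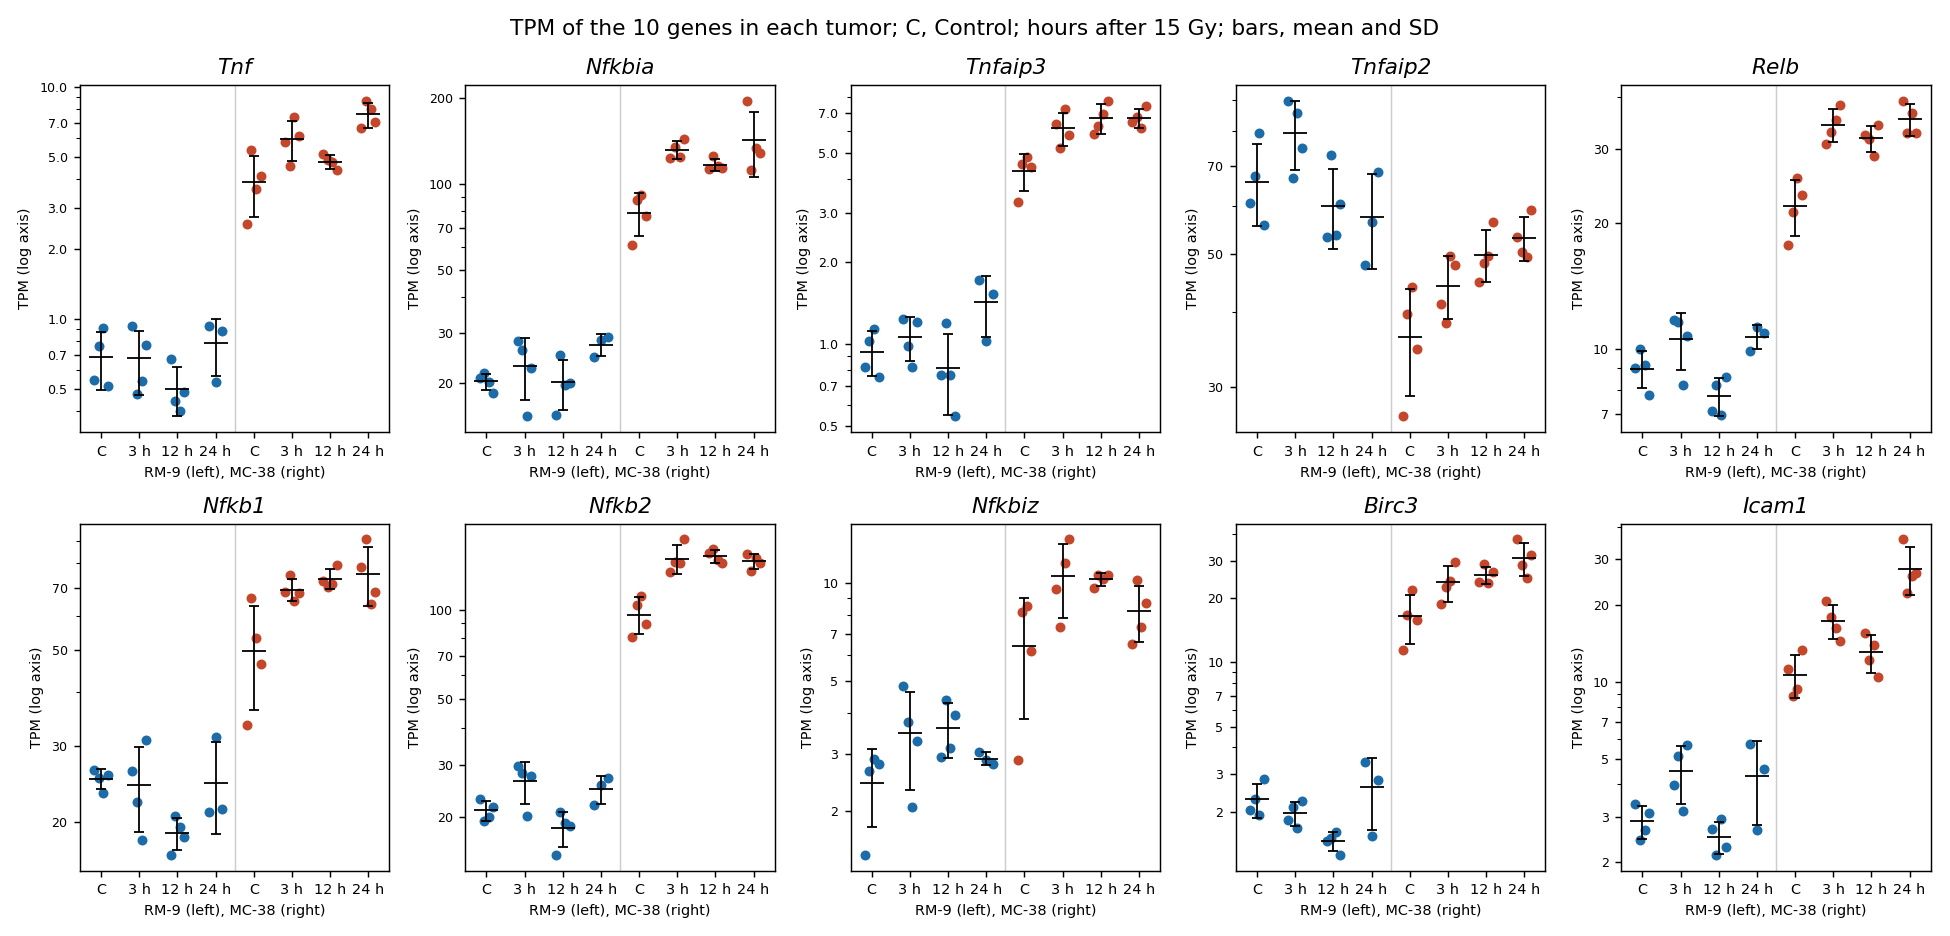
TPM of the 10 genes (vertical log axis) in each tumor, with RM-9 groups in blue at the left and MC-38 groups in red at the right of each panel. C stands for Control, points are mice, and black bars give the mean and SD. The MC-38 points lie above the RM-9 points in most panels, and the reverse holds for Tnfaip2 in the Control groups.

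At 24 h after RT, 9 of the 10 genes were higher in MC-38 tumors than in Control, where 13.2% of all 15698 genes tested were called higher. The median change was 0.65 on the log2 scale for the 10 genes and 0.22 for all genes. For 8 of the 10, all 4 RT tumors lay above all 4 Control tumors, which held for 14.8% of all genes. With median-ratio scaling 8 remained called, beside 7.81% of all genes. Without MC-38 Control mouse 1 there were 9, beside 1228 of 15691 genes called higher. With only the 2 compared groups in the fit, 2 of 10 were called, Nfkb2 and Icam1, beside 306 of 15649 genes called higher.

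Icam1 rose the most of the 10 genes at 24 h. Its TPM was 11.3, 8.81, 9.40 and 13.3 in MC-38 Control tumors and 35.9, 22.2, 25.8 and 26.6 at 24 h after RT, with no overlap between the groups. The log2 fold change was 1.33 ± 0.17 (SE, adjusted p = 0.000405), and the exact two-sided permutation p was 0.0286, the smallest that 4 mice against 4 can give. It ranked 33 by p among all genes tested. At 3 h Icam1 had 14.5 to 20.6 TPM and at 12 h 10.5 to 15.5 TPM, and neither passed adjustment (adjusted p = 0.10 and 0.20).

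Tnf had 6.62, 8.70, 8.02 and 7.03 TPM at 24 h in MC-38 tumors, all above the highest Control value of 5.32 TPM. The change was 0.91 ± 0.18 (log2, SE, adjusted p = 0.0052). In order of its mean, Tnf was lowest in Control, then at 12 h (4.75 ± 0.32 TPM), 3 h (5.96 ± 1.18) and 24 h (7.59 ± 0.94, SD, n = 4 each). Neighbouring groups in this order overlapped in their values. The changes at 3 h (0.57 ± 0.18, adjusted p = 0.15) and 12 h (0.29 ± 0.18, adjusted p = 0.20) were not called.

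The inhibitor gene Nfkbia was at 60.8, 87.4, 91.3 and 77.3 TPM in MC-38 Control tumors and at 195, 112, 133 and 128 TPM at 24 h. All RT tumors lay above all Control tumors, and mouse 1 of the 24 h group was the highest of all. The change was 0.82 ± 0.15 (log2, SE, adjusted p = 0.00316). The ubiquitin ligase gene Birc3 rose by 0.91 ± 0.18 (adjusted p = 0.00496), from 11.5 to 21.8 TPM over the Control tumors to 24.9 to 37.7 TPM. Tnfaip3, the other inhibitor, rose by 0.60 ± 0.14 (adjusted p = 0.013), from 3.31 to 4.84 TPM to 6.16 to 7.41 TPM. The nuclear regulator gene Nfkbiz was the only gene of the 10 not called, with 6.52 to 10.2 TPM at 24 h and a change of 0.41 ± 0.26 (adjusted p = 0.305).

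The subunit genes rose by similar amounts at 24 h. Relb, at 17.7, 21.2, 25.7 and 23.3 TPM in Control and 39.2, 32.8, 36.8 and 32.9 TPM at 24 h, changed by 0.68 ± 0.12 (log2, SE, adjusted p = 0.00212). Nfkb2 changed by 0.61 ± 0.11 (adjusted p = 0.00233), from 81.1, 104, 111 and 89.2 TPM to 154, 135, 149 and 144 TPM. Neither gene overlapped between the groups. Nfkb1 changed by 0.62 ± 0.16 (adjusted p = 0.021), but 1 of its 4 RT tumors lay within the Control range, and with median-ratio scaling the call was lost (log2 0.35, adjusted p = 0.080). Tnfaip2 rose by 0.56 ± 0.14 (adjusted p = 0.016), from 36.3 ± 7.38 to 53.0 ± 4.42 TPM (SD, n = 4 each).

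**Figure D2:**
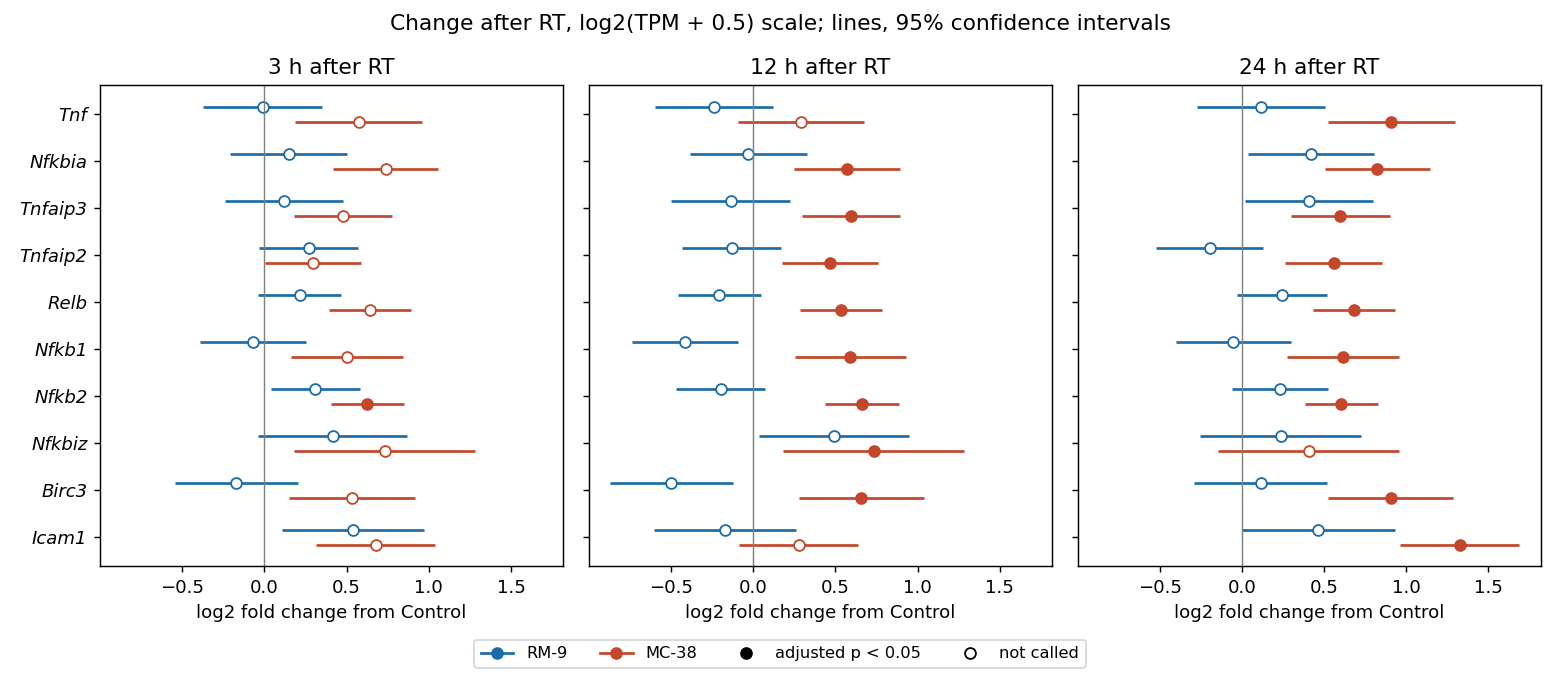
Log2 fold change from Control (horizontal axis, log2(TPM + 0.5) scale) of the 10 genes by time after RT, for RM-9 in blue and MC-38 in red. Lines are 95% confidence intervals, and filled points passed an adjusted p of 0.05. All filled points belong to MC-38 tumors, with 1 at 3 h, 8 at 12 h and 9 at 24 h.

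At 12 h, 8 of the 10 genes were called higher in MC-38 tumors, but so were 28.5% of all genes, and the count depended on the scaling. The 8 were those other than Tnf and Icam1, and in all 8 the RT tumors did not overlap the Control tumors, as in 34.5% of all genes. Median changes were 0.58 for the 10 genes and 0.33 for all genes. With TPM rescaled without mitochondrially encoded genes, 7 were called beside 19.6% of all genes, and with median-ratio scaling only Nfkb2 was called, beside 6.32%. Without MC-38 Control mouse 1, 4 were called, where 1561 of all 15691 genes were called higher. Likewise 4 were called without mouse 2 or mouse 4 of the 12 h group, beside 1267 of 15702 and 1425 of 15677 genes. With only the 2 compared groups in the fit, 3 were called, beside 1164 of 15658 genes called higher. The 4 RT tumors lay close together for most of the genes, as for Nfkbiz at 9.63, 10.6, 10.3 and 10.6 TPM, while its Control tumors ranged from 2.87 to 8.52 TPM.

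Nfkb2 was the one gene of the 10 that passed the threshold in MC-38 tumors at 24 h and also at 12 h under all 18 alternative fits at each time. Its TPM at 12 h was 155, 161, 148 and 143, and the change was 0.66 ± 0.11 (log2, SE, adjusted p = 0.0049), or 0.31 with median-ratio scaling (adjusted p = 0.028). The other changes called at 12 h ran from 0.47 ± 0.14 for Tnfaip2 to 0.73 ± 0.26 for Nfkbiz. The value of Nfkbiz was 0.42 without MC-38 Control mouse 1 (adjusted p = 0.14), and its call held in 8 of 18 alternative fits.

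At 3 h after RT, Nfkb2 alone was called in MC-38 tumors, 1 of 10 genes beside 0.051% of all genes called higher. Its TPM was 134, 144, 143 and 173, all above the highest Control tumor at 111 TPM, and the change was 0.63 ± 0.11 (log2, SE, adjusted p = 0.037). All 10 genes had an unadjusted p under 0.05 with a rise in the mean, beside 18.1% of all genes. In 5 of them (Nfkbia, Tnfaip3, Relb, Nfkb2 and Icam1) the RT and Control tumors did not overlap, which held for 7.2% of all genes. The Nfkb2 call at 3 h was lost with median-ratio scaling (adjusted p = 0.051) and when any 1 of the 8 mice other than Control mouse 3 was left out, and adjusted p ranged from 0.0054 to 0.39 over the 18 alternatives. Relb (0.64 ± 0.12, adjusted p = 0.057) and Nfkbia (0.74 ± 0.15, adjusted p = 0.067) were near the threshold, and both were called, beside Nfkb2, with TPM rescaled without mitochondrially encoded genes (adjusted p = 0.019 and 0.042), 3 of 10 beside 0.724% of all genes.

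**Figure D3:**
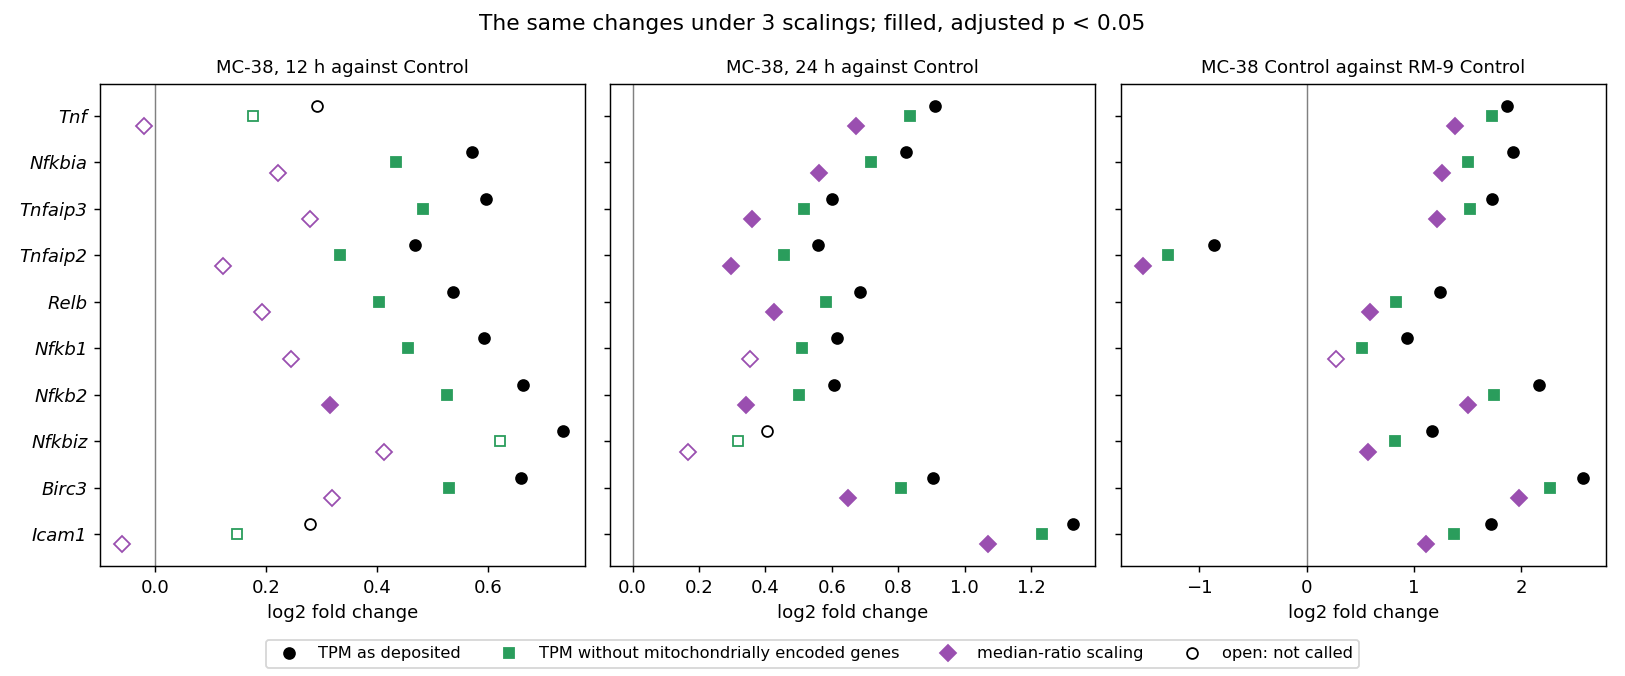
Log2 differences of the 10 genes (horizontal axis) with TPM as deposited in black, TPM without mitochondrially encoded genes in green and median-ratio scaling in purple, for MC-38 at 12 h, MC-38 at 24 h and MC-38 Control against RM-9 Control. Filled symbols passed an adjusted p of 0.05. With median-ratio scaling 1 symbol is filled at 12 h and 8 at 24 h, and Tnfaip2 is the only gene left of 0 in the comparison of the Control groups.

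In the RM-9 model, none of the 10 genes was called in limma at any time. Of all 14013 genes tested, 0.228% were called at 3 h and 8.37% at 12 h. The share was 0.0% for the latest time. At an unadjusted p under 0.05, 2 of the 10 genes had a higher mean at 3 h (Nfkb2 and Icam1), beside 15.7% of all genes higher and 21.8% in either direction. At 12 h there were 2 of 10 with a lower mean (Nfkb1 and Birc3), beside 30.5% of all genes, and 1 with a higher mean (Nfkbiz), beside 0.549%. At 24 h there were 3 of 10 with a higher mean (Nfkbia, Tnfaip3 and Icam1), beside 1.98% of all genes higher and 4.86% in either direction. Dunnett's comparisons on TPM, the test used in the study and not adjusted over genes, called 0 of 10 at each time, as did every alternative fit. The median log2 change of the 10 genes was 0.18 at 3 h, beside 0.06 for all genes. It was -0.19 at 12 h, the same as for all genes, and 0.23 at 24 h, beside -0.04.

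At 24 h, Nfkbia was the one gene whose RM-9 RT tumors all lay above the Control tumors, at 24.7, 28.3 and 29.0 TPM against 20.8, 21.7, 20.1 and 18.5 TPM, which held for 2.01% of all genes. The change of 0.42 ± 0.18 (log2, SE) had a 95% confidence interval of 0.04 to 0.80 and did not pass adjustment (adjusted p = 0.999). Icam1 reached 5.72, 2.66 and 4.61 TPM, so 1 of the 3 tumors stayed within the Control range of 2.43 to 3.36 TPM. At 3 h, Icam1 was at 3.98, 5.16, 3.14 and 5.69 TPM and its change was 0.54 ± 0.20 (adjusted p = 0.16). Nfkb2 at 3 h had 29.7, 28.2, 20.1 and 27.4 TPM against 19.4 to 23.0 TPM in Control (0.31 ± 0.13, adjusted p = 0.18).

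At 12 h in RM-9 tumors, Nfkb1 and Birc3 had all RT tumors below all Control tumors, 2 of 10 genes beside 19.4% of all genes. Nfkb1 was at 16.7, 20.6, 19.4 and 18.4 TPM against 23.3 to 26.4 TPM in Control (-0.41 ± 0.15, adjusted p = 0.086). Birc3 was at 1.26 to 1.61 TPM against 1.94 to 2.86 TPM (-0.50 ± 0.18, adjusted p = 0.078). With median-ratio scaling the changes were -0.20 for Nfkb1 and -0.33 for Birc3, and with read coverage -0.14 and -0.36. Nfkbiz had all RT tumors above all Control tumors, beside 0.243% of all genes, at 2.94, 4.39, 3.12 and 3.95 TPM against 1.47, 2.66, 2.89 and 2.79 TPM, and its change of 0.49 ± 0.21 had an adjusted p of 0.13. Tnf in RM-9 tumors stayed between 0.401 and 0.931 TPM in all 15 libraries, and its log2 changes in order of time were -0.01 ± 0.17, -0.24 ± 0.17 and 0.12 ± 0.18. The 95% intervals reached up to 0.35, 0.12 and 0.50, in the same order.

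Whether the change after RT differed between the models was tested by an interaction contrast over all 31 libraries. At 12 h, 7 of the 10 genes rose more in MC-38 than in RM-9 tumors, beside 44.9% of all 15358 genes. They were Nfkbia, Tnfaip3, Tnfaip2, Relb, Nfkb1, Nfkb2 and Birc3, with differences from 0.60 ± 0.20 for Tnfaip2 to 1.16 ± 0.26 for Birc3 (log2, SE). Without mitochondrially encoded genes 4 of these were called, beside 13.1% of all genes. Under median-ratio scaling the count was 0, beside 1.52%. At 24 h none passed (0 of 10 in limma, beside 1.81%), with 7 of 10 higher at an unadjusted p under 0.05, beside 21.4% of all genes. The differences at 24 h were 0.86 ± 0.28 for Icam1 (95% interval 0.28 to 1.44, adjusted p = 0.088), 0.79 ± 0.25 for Tnf (adjusted p = 0.084) and 0.76 ± 0.21 for Tnfaip2 (adjusted p = 0.054). At 3 h none passed either, as for all genes (0.0%), and 5 of 10 had a larger rise in MC-38 tumors at an unadjusted p under 0.05, beside 8.66% of all genes.

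Other genes of the pathway were read from a list of 56, of which 53 were tested in MC-38 and 54 in RM-9 tumors. At 24 h in MC-38 tumors 21 of 53 rose and 0 fell, beside 13.2% of all genes called higher and 0.548% lower. The median change was 0.38, against 0.22 for all genes. With median-ratio scaling 11 rose and 2 fell, beside 7.81% and 8.15% of all genes. By role, and beside the same 13.2%, 7 of 12 further inhibitors and feedback regulators rose, 9 of 17 further targets, 4 of 12 receptors and adaptors, and 1 of 10 genes of the kinase and ubiquitin ligase complexes. Neither of the other Rel subunits was called. The called genes with the largest changes were targets, the chemokines Ccl5 (1.56 ± 0.26, adjusted p = 0.00169), Ccl2 (1.22 ± 0.19, adjusted p = 0.00116) and Cxcl10 (0.99 ± 0.18, adjusted p = 0.00332) and the nitric oxide synthase Nos2 (1.26 ± 0.35, adjusted p = 0.026).

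At 12 h in MC-38 tumors 21 of the 53 rose and 2 fell, beside 28.5% of all genes called higher and 2.59% lower, and with median-ratio scaling 2 rose and 4 fell, beside 6.32% and 9.81%. The genes that fell were Bcl2a1d, an inhibitor of apoptosis (-1.27 ± 0.24, adjusted p = 0.0081), and the cytokine subunit Ebi3 (-0.85 ± 0.21, adjusted p = 0.015). The largest rises were those of Nos2 (1.26 ± 0.35, adjusted p = 0.021) and Ikbkg, the regulatory subunit of the IkB kinase (0.71 ± 0.24, adjusted p = 0.037). Neither was called with median-ratio scaling (Nos2 0.93, adjusted p = 0.055, and Ikbkg 0.38, adjusted p = 0.19) or without MC-38 Control mouse 1 (adjusted p = 0.070 and 0.13), and Ikbkg was called in 8 of 18 alternative fits. At 3 h none of the 53 was called. In RM-9 tumors no gene of the list rose at any time, except 1 at 3 h with median-ratio scaling, and 3 of 54 fell at 12 h, beside 8.3% of all genes, the adaptor Myd88 (-0.48 ± 0.14, adjusted p = 0.048), the target Sod2 (-0.40 ± 0.10, adjusted p = 0.030) and the subunit Rela (-0.31 ± 0.09, adjusted p = 0.048). With median-ratio scaling 0 of these were called.

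**Figure D4:**
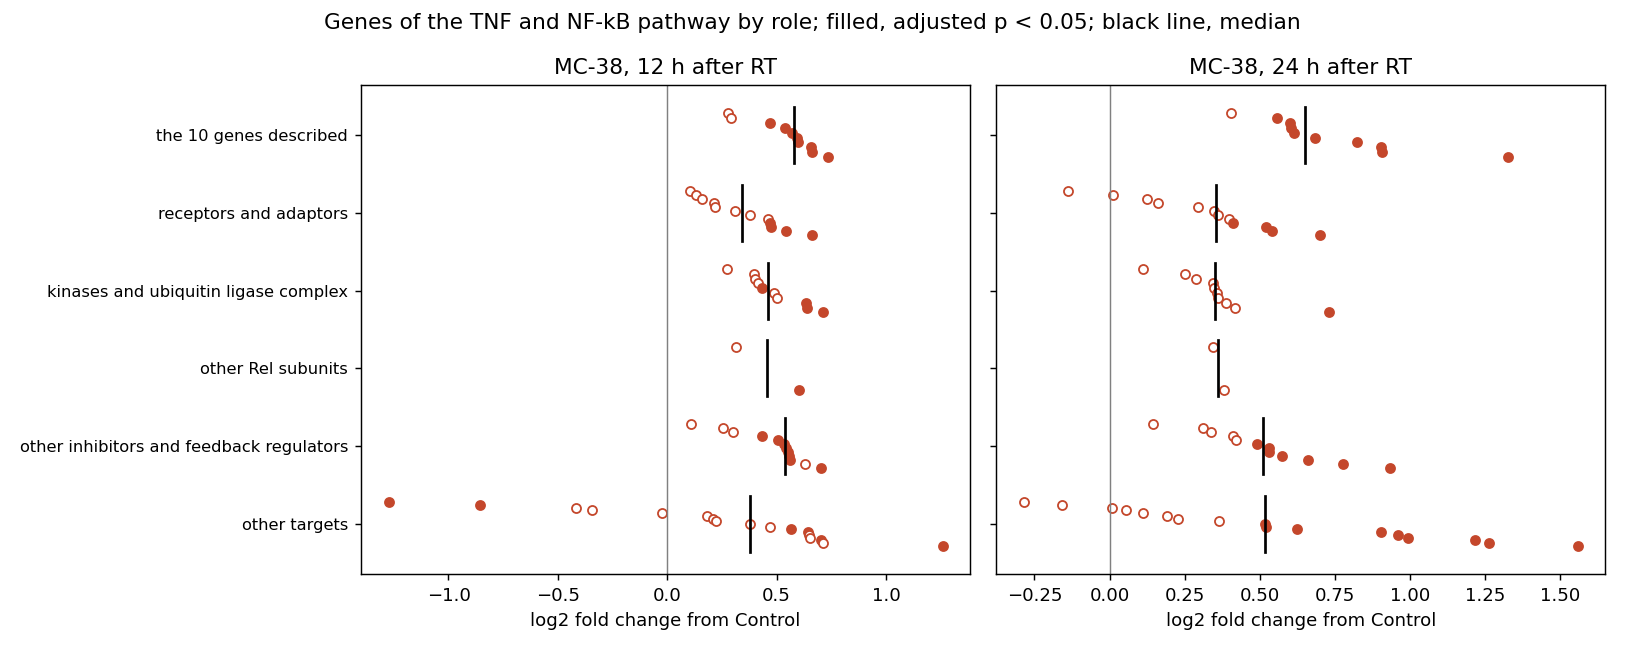
Log2 fold change from Control (horizontal axis) in MC-38 tumors at 12 h and 24 h for the 10 genes and for the rest of the pathway list by role. Points are genes, filled where the adjusted p was under 0.05, and black lines are medians. At 24 h the medians of the 10 genes and of further targets and feedback regulators lie at 0.65, 0.52 and 0.51, against 0.35 for receptors and adaptors.

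Before RT, 45 of the 55 listed genes tested were higher in MC-38 than in RM-9 tumors and 4 were lower, beside 64.7% and 10.7% of all genes. Under median-ratio scaling 27 of 54 were higher and 11 lower, beside 33.4% and 32.2%. Targets with the largest differences were Cxcl10 (4.77 ± 0.36), from 30.5 ± 7.08 to 841 ± 185 TPM (SD, n = 4 each), Nos2 (3.28 ± 0.34), Ccl5 (3.24 ± 0.28) and the transcription factor gene Irf1 (3.12 ± 0.20). In the interaction contrast at 12 h, 34 of 55 rose more in MC-38 tumors, beside 44.9% of all genes, with the largest differences for Cxcl10 (1.76 ± 0.51), Ccl5 (1.43 ± 0.40), the nuclear inhibitor gene Nfkbid (0.98 ± 0.29) and the adhesion molecule Vcam1 (0.96 ± 0.27), and under median-ratio scaling 0 of 54 rose more, beside 1.52%. At 24 h 3 of 55 did, beside 1.81% of all genes, Ccl5 (1.92 ± 0.42), Vcam1 (1.09 ± 0.28) and Rnf31, of the linear ubiquitin ligase complex (0.80 ± 0.20), and with median-ratio scaling only Rnf31 did, beside 1.34%.

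The genes whose log2 levels followed the circuit most closely over the 16 MC-38 libraries were Nfkbie, another cytoplasmic inhibitor (r = 0.96), and Ccne1 (r = 0.95) for Nfkbia, C78339 (r = 0.97) and Mypop (r = 0.96) for Nfkb2, and Tmbim4 (r = 0.91) and Pim1 (r = 0.91) for Tnf. Over the 15 RM-9 libraries they were Csrnp1 (r = 0.94) and Il13ra1 (r = 0.86) for Nfkbia, Myo5a (r = 0.92) and Ccdc55 (r = 0.92) for Nfkb2, and Fam78b (r = 0.76) and Fam84b (r = 0.75) for Tnf. These are Pearson correlations with genes that had a mean of at least 1 TPM in that model. Tnf itself was below that in RM-9 tumors, with group means of 0.50 to 0.79 TPM. The libraries share their scaling and the differences between groups.

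Markers of other cells were also called after RT in both models, with TPM as deposited. In RM-9 tumors at 12 h, 5 of 8 macrophage markers and 3 of 4 T cell markers tested were lower, beside 8.3% of all genes. With median-ratio scaling only 6 of all 14003 genes were called lower there, so not all of these calls can hold. No gene at all was called at 12 h when any of Control mice 1, 2 or 4 or RT mice 1 or 4 was left out. No macrophage or T cell marker was called in RM-9 tumors at 3 h or 24 h. The values that follow are for MC-38 tumors, where 13.2% of all genes were called higher and 0.548% lower at 24 h. At 12 h these shares were 28.5% and 2.59%. With median-ratio scaling they were 7.81% and 8.15% at 24 h, and 6.32% and 9.81% at 12 h. The marker counts are from the main fit only. The sum of 8 macrophage markers was 1023 to 1741 TPM in Control and 780 to 1094 TPM at 24 h, with 1 of 8 lower and 0 higher, and at 12 h it was 351 to 913 TPM, with 6 of 8 lower. Endothelial markers summed to 41.8 to 57.1 TPM in Control and 57.5 to 76.3 TPM at 24 h, with 2 of 6 higher. The 8 neutrophil markers summed to 12.0 to 26.4 TPM and 21.5 to 37.96 TPM, with 0 of 6 tested called. T cell markers fell in 3 of 7 at 24 h, from 19.4 to 30.2 TPM down to 9.39 to 18.4 TPM, and in 4 of 7 at 12 h. The 4 B cell markers summed to 3.97 to 7.92 TPM and 7.18 to 10.96 TPM, with 1 of 2 tested higher, and fibroblast markers to 470 to 777 TPM and 576 to 1078 TPM, with 0 of 5 called. Muscle markers summed to 19.1 to 10125 TPM in Control and 13.2 to 3405 TPM at 24 h. None of the macrophage, neutrophil, endothelial, T cell, B cell, fibroblast or muscle markers was at 0 in all MC-38 libraries, and their part in the change of the 10 genes was not tested.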

How the data were processed

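The authors deposited TPM, FPKM and coverage for each library. TPM was made by the authors within a library; the deposited FPKM differs from it by 1 constant per library, and coverage was deposited as mean read depth per base, a signal not scaled for depth. Reads were single-end, 75 bases, from stranded mRNA libraries. The submitters' processing notes list bcl2fastq 2.17 and GRCm39; the aligner and quantifier are not given in the sources used here. Gene coordinates matched GENCODE M21 (GRCm38), with 91.1% of shared genes having the same start or end, so GRCm38 was used. Repeated rows of a gene were summed. TPM and coverage were not proportional for genes with several transcripts (4.14 to 5.77 times the typical ratio for Birc3), so levels were not compared between genes. The ratio also varied between libraries of 1 model, from 3.04 to 4.21 for Nfkb1 in RM-9, which enters the comparisons between tumors too.

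log2(TPM + 0.5) was fitted with limma 3.58.1 (R 4.3.3, lmFit and eBayes with a trend) on genes whose mean reached 0.5 TPM. The 4 groups of a model were fitted together, and all 31 libraries for the comparisons between models. All 10 genes passed this filter in both models. Benjamini-Hochberg adjustment covered all genes tested, with a threshold of 0.05. Exact permutation tests and Dunnett's comparisons on TPM used scipy 1.17.1. Mice were taken as replicates from the labels. The scripts were tested on simulated data. All 10 genes were named in every comparison. From the pathway list, up to 4 called genes with the largest change per comparison were named, and for Tnf, Nfkbia and Nfkb2 the 2 genes with the highest correlation. The 10 genes and all lists were chosen with earlier results of these data known. The coverage alternative was added after seeing the data. The tables hold no read counts, so no counting error was given for single genes.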

Additional observations from a re-analysis of the deposited data

Results flagged for a closer look

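Of 70 groups of 4 mice examined (10 genes in 7 groups), 1 held a mouse far from the others, where chance alone gives about 1 in 20. In RM-9 Control tumors, Nfkbiz was at 1.47 TPM in mouse 1 and at 2.66 to 2.89 TPM in the other 3. The group with 3 mice was not examined.

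The change at 12 h after RT differed between the models by the interaction contrast in limma for 7 genes. On the log2 scale the change in MC-38 exceeded that in RM-9 tumors by 1.16 for Birc3 (adjusted p = 0.0028), 1.00 for Nfkb1 (adjusted p = 0.0031), 0.86 for Nfkb2 (adjusted p = 0.0017), 0.74 for Relb (adjusted p = 0.0028), 0.73 for Tnfaip3 (adjusted p = 0.010), 0.60 for Nfkbia (adjusted p = 0.038) and 0.60 for Tnfaip2 (adjusted p = 0.020). The median of all genes was 0.50 in the same contrast, and none of the 7 passed with median-ratio scaling.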

How the results depend on the processing

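The number of the 10 genes called at an adjusted p under 0.05 was recomputed under each alternative. In RM-9 tumors it was 0 at each time under every alternative, and in the comparison of the Control groups it was 9 with median-ratio scaling and otherwise 10 or, with a mean of at least 5 TPM, 8. For MC-38 tumors at 3 h the count of 1 became 0 with median-ratio scaling, without the trend, with the replicate block and with only the 2 groups in the fit, 3 without mitochondrially encoded genes or with read coverage, and 0 to 3 when 1 mouse was left out. Dunnett's comparisons, whose p is not adjusted over genes, are not on the same footing. By them the MC-38 count was 7 at 3 h, 6 at 12 h (Nfkbia and Nfkbiz did not pass) and 9 at 24 h. They covered only the 10 genes, so these counts have no share of all genes to be read against. In limma at an unadjusted p under 0.05, 10 of 10 were higher at 3 h, beside 18.1% of all genes. That count was 8 beside 44.0% in the 12 h group, and 9 beside 28.4% in the 24 h group. At 12 h the count of 8 became 1 with median-ratio scaling, 3 with only the 2 groups in the fit and 4 to 8 when 1 mouse was left out. At 24 h the count of 9 became 2 with only the 2 groups in the fit, where the spread rests on 8 mice, and 8 to 9 when 1 mouse was left out. The difference between the models at 12 h, called for 7 genes, was called for 0 with median-ratio scaling, 4 without mitochondrially encoded genes, 4 with read coverage and 5 to 8 when 1 mouse was left out. At 24 h the 0 became 2 with a pseudocount of 1 TPM, 1 with a mean of at least 5 TPM, 1 with read coverage and 0 to 3 when 1 mouse was left out (3 without MC-38 Control mouse 2). The cause was not tested.

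Replicate numbers did not pair the mice: same-numbered samples deviated from their group means with a median correlation of -0.06 in RM-9 (5 of 21 pairs over 0.1) and -0.07 in MC-38 tumors (7 of 24). With the replicate block, the member count changed only for MC-38 at 3 h, from 1 to 0.

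Of 2621 refits of 134 changes of single genes, 2339 kept their direction and side of the threshold, 223 lost and 17 gained a call, and 42 changed sign, 0 of them called in either fit. With median-ratio scaling the sign changed in RM-9 at 12 h for Nfkbia (0.19), Tnfaip2 (0.088), Relb (0.000169), Nfkb2 (0.016) and Icam1 (0.014), in MC-38 at 12 h for Tnf (-0.019) and Icam1 (-0.059), and in the difference between models for Tnfaip2 (-0.10) and Icam1 (-0.011) at 3 h, Nfkbiz (-0.28) and Icam1 (-0.041) at 12 h, and Tnfaip3 (-0.078) and Nfkbiz (-0.080) at 24 h. Without mitochondrially encoded genes it changed for Nfkbia (0.11) and Tnfaip2 (0.015) in RM-9 at 12 h, and for Tnfaip2 (-0.058) at 3 h and Nfkbiz (-0.050) at 12 h in the difference between models. With read coverage it changed in RM-9 for Tnf (0.022) and Nfkb1 (0.15) at 3 h, Nfkbia (0.12) and Tnfaip2 (0.15) at 12 h and Nfkb1 (0.085) at 24 h, and in the difference between models at 3 h for Tnfaip2 (-0.12) and Icam1 (-0.024). Leaving out 1 mouse gave, in RM-9 tumors, -0.11 to 0.080 for Tnf and -0.19 to 0.060 for Nfkb1 at 3 h, -0.14 to 0.087 for Nfkbia at 12 h, and -0.24 to 0.046 for Nfkb1 and -0.084 to 0.39 for Birc3 at 24 h. In the difference between models it gave -0.11 to 0.13 for Tnfaip2 and -0.0039 to 0.25 for Icam1 at 3 h, and for Nfkbiz -0.073 to 0.42 at 12 h and -0.15 to 0.35 at 24 h.

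Over all genes, calls in MC-38 at 12 h fell from 4875 to 2534 with median-ratio scaling (993 higher, against 4469) and to 1841 without Control mouse 1, and at 24 h from 2159 to 318 with only the 2 groups in the fit. In RM-9 at 12 h 1173 calls became 19 with median-ratio scaling and 79 without mitochondrially encoded genes, and 0 when any of Control mice 1, 2 or 4 or RT mice 1 or 4 was left out. At 3 h, 32 calls in RM-9 became 383 and 10 in MC-38 became 104 with median-ratio scaling. The difference at 12 h fell from 6975 to 432. In RM-9 tumors Tnf, Tnfaip3, Birc3 and Nfkbiz rested on few reads per base, which limits what could be detected there.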
